A study of Mus musculus with 2 samples.

Results

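The 4 Id genes (Id1, Id2, Id3 and Id4) and the 2 inhibitory Smad genes (Smad6 and Smad7) were followed through the cell groups of the mouse incisor. They were chosen by name, as genes that respond to BMP and TGF-beta signals, and are 6 of the 31053 genes in the count matrix. Their counts of unique molecular identifiers (UMIs) were read in 4775 barcodes, those with 500 or more detected genes and no more than 20% mitochondrial UMIs. The tissue was the incisor of untreated C57BL/6 mice of 4 weeks. Jaw bone was cut away, the pulp and the dental epithelium were both kept and digested with collagenase, and the 10x Genomics 3′ v3 kit was used to make the library. The labels call the tissue dental mesenchyme, but epithelial, immune, endothelial and erythroid cells were all present. The 2 sample titles, read here as lanes of 1 library, share 1 matrix with no map from barcodes to titles, and the number of animals is unknown. The matrix was therefore treated as 1 sample, no difference has a replicate check, and every interval is an exact 95% interval that covers counting error only.

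BMP ligands activate paired serine-threonine kinase receptors that phosphorylate Smad1, Smad5 and Smad9, which enter the nucleus with Smad4 and switch on target genes, the Id genes among the fastest. Id proteins have a helix-loop-helix domain but no DNA-binding region, and they keep basic helix-loop-helix (bHLH) factors off DNA by pairing with them. Smad6 and Smad7 are feedback inhibitors at the receptors, Smad6 mainly for BMP receptors and Smad7 for both BMP and TGF-beta receptors. In the growing tooth, BMP signals pass between epithelium and mesenchyme and take part in the differentiation of both layers.

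After 122 suspected doublets and 151 barcodes with over 5% haemoglobin UMIs outside erythroid clusters were removed, 4502 cells were left. They were 74 endothelial-like, 770 epithelial-like, 1360 immune-like, 57 erythroid-like and 1960 mesenchymal-like cells, and 281 unnamed cells. Median depth was 4495.5 UMIs in endothelial, 9296.5 in epithelial, 2962 in immune, 6506 in erythroid and 6950.5 in mesenchymal cells. The 27 clusters are called by a leading gene, and neither the 6 genes nor the pathway lists below were used to form them. The unnamed cells were a Plac8 cluster of 243 cells, which had 9 raised mesenchymal markers but, among its leading genes, a monocyte marker and none of its own, and an Hs3st1 cluster of 38 cells.

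Id1 lies at chr2:152736251-152737410 and Id3 at chr4:136143497-136145755, both on the plus strand (GENCODE M21, GRCm38). Id2 lies at chr12:25093799-25097140 and Smad6 at chr9:63953076-64022059, both on the minus strand. Id4, at chr13:48261228-48266026 on the plus strand, overlaps the antisense gene A330033J07Rik and the lincRNA Gm49291 on the other strand. Whether counting used strand is not stated, so Id4 values are uncertain to that extent. Id1 has no promoter in the RefSeq table (GRCm38.p6), and Smad7 was left out. The promoters of Id2, Id3, Id4 and Smad6, 4 of the 6 genes, were read from that table. They are shown because the letters that BMP and TGF-beta Smads are known to bind, GGCGCC and CAGAC, can be read in some of them. The windows ran from 250 bases before the RefSeq gene start to 50 after it, and capitals mark either motif on either strand. GENCODE has longer transcripts of Id2 and Id3, so the Id2 stretch lies in an intron of 1 of its 3 GENCODE transcripts and both Id3 stretches in a 5′ UTR exon of 1 of 3. The Id4 and Smad6 stretches lie before every GENCODE transcript of these genes.
Id2, chr12:25096254-25096342, minus strand: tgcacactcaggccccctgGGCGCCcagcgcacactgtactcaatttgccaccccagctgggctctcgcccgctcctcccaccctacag
Id3, chr4:136143642-136143671, plus strand: ctgtcctcggcgtCAGACcagcctaaggaa
Id3, chr4:136143741-136143770, plus strand: tggacccttggcgGTCTGttttgaataagg
Id4, chr13:48260866-48261115, plus strand: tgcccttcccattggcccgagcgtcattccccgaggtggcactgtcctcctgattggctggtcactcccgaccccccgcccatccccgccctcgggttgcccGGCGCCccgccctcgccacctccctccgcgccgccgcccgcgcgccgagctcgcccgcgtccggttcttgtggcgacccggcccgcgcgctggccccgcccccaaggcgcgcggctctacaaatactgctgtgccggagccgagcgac
Smad6, chr9:64022060-64022309, minus strand: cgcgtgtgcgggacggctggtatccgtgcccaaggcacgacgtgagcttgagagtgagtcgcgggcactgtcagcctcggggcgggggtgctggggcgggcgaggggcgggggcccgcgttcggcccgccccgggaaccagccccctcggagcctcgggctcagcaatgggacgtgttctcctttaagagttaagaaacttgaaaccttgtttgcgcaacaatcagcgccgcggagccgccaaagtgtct
GGCGCC began at position −231 of Id2 and −148 of Id4, and CAGAC or its complement at −167 and −68 of Id3, counted from the RefSeq start. Among 32851 promoters of the same length, 11.9% held GGCGCC and 49.6% held CAGAC. The bHLH motif CANNTG, which does not overlap the capitals, was found at −196 of Id2 and +8 of Smad6, and in 72.3% of all promoters. The Smad6 window held neither Smad motif. These matches describe letters and not binding.

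The highest levels of the 6 genes were found in 5 different clusters. Over the kept barcodes, summed UMIs were 5440 for Id1, 6195 for Id2, 26664 for Id3, 1122 for Id4, 1736 for Smad6 and 2848 for Smad7. Levels are given as UMIs per 1000000 UMIs of a cell group (CPM) and are compared between cell groups within a gene, never between genes. Droplets with 1 to 20 UMIs, taken as the free RNA of the suspension, held 66.3 CPM of Id1, 119 of Id2, 413 of Id3, 39.2 of Id4, 12.8 of Smad6 and 22.9 of Smad7. Free RNA therefore contained all 6 genes, and a level at or under that of the droplets is not read as expression on its own. Erythroid-like cells, whose RNA is largely haemoglobin, had lower values than the droplets, from 0 CPM of Id4 to 38.0 CPM of Id2. To compare shares of cells at 1 depth, cells were thinned to 2000 UMIs, and 687 shallower cells were left out. On that scale 0 of 57 erythroid-like cells had a UMI of Id1, Id3, Id4, Smad6 or Smad7, which by the floor of 3 counts allows a share of up to 5.26%, and 1.75% had one of Id2.

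**Figure D1:**
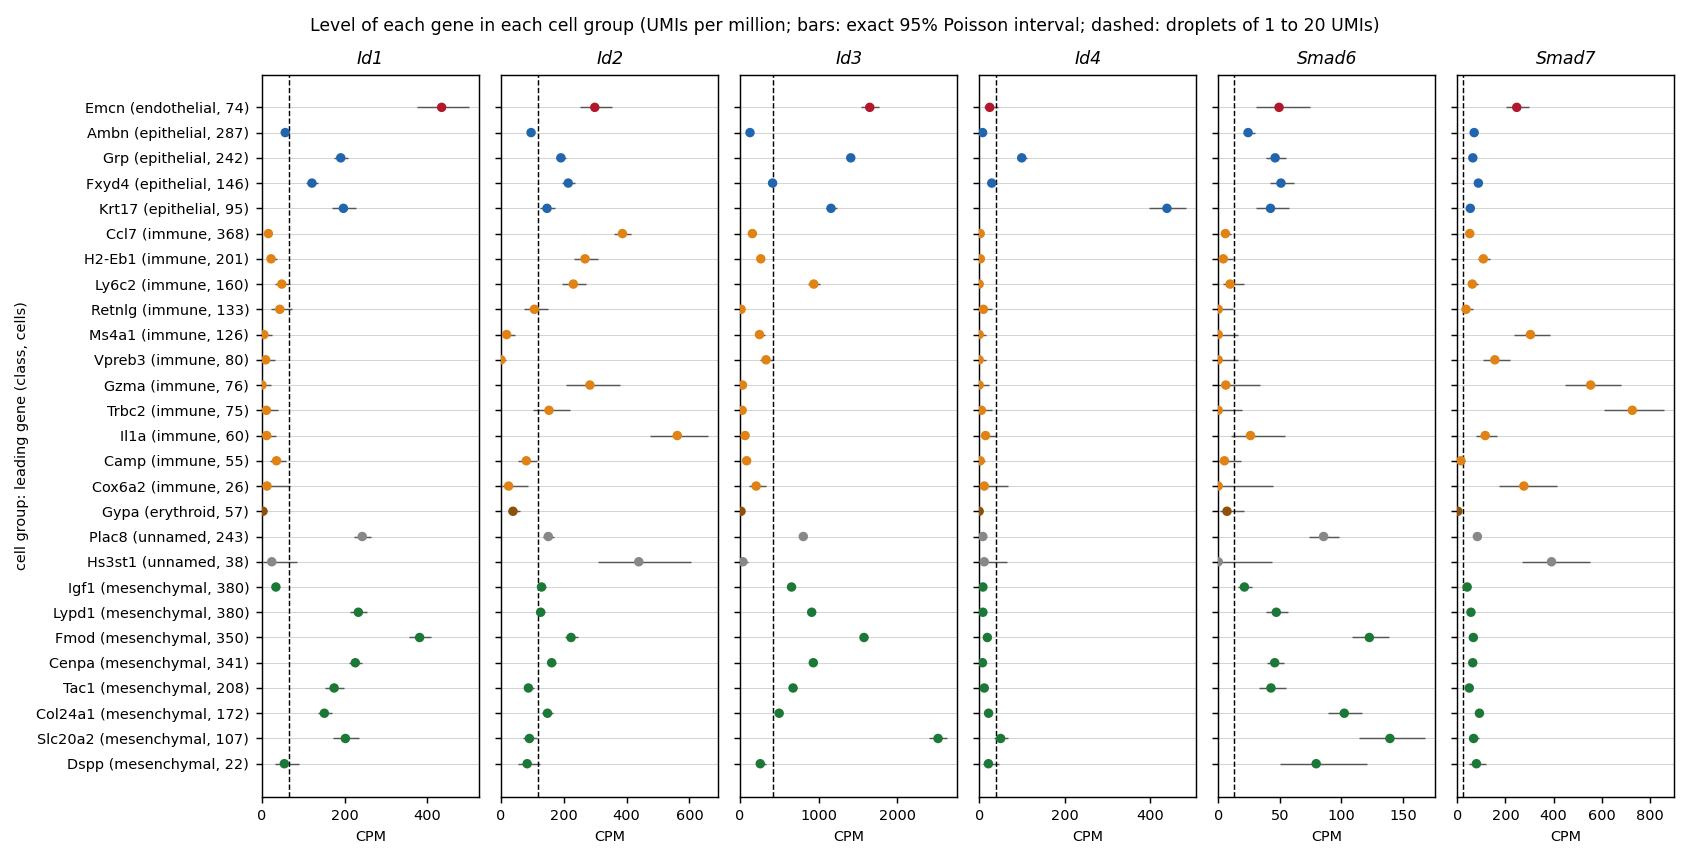
Level of each gene (CPM, linear axis from 0, own scale per gene) in each of the 27 cell groups, named by leading gene with class and number of cells. Points are summed counts over the group's total, bars are exact 95% Poisson intervals, and the dashed line is the level in droplets of 1 to 20 UMIs. Id1 peaks in Emcn and Fmod cells, Id2 in Il1a, Hs3st1 and Ccl7 cells, Id3 in Slc20a2 cells, Id4 in Krt17 cells, Smad6 in mesenchymal clusters and Smad7 in Trbc2 and Gzma lymphocytes.

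Id1, the member most often used as a readout of BMP signalling, was highest in the endothelium and in 1 mesenchymal cluster. It had 435 CPM (376 to 501) in the endothelial Emcn cluster and 382 CPM (356 to 409) in the mesenchymal Fmod cluster, 2 levels that were not apart beyond counting error. The Plac8, Lypd1, Cenpa, Slc20a2, Krt17, Grp, Tac1 and Col24a1 clusters followed between 243 and 151 CPM, with no neighbours in that order apart. Below them Fxyd4 cells had 121 CPM, and 16 clusters were at or under the 56.4 CPM of Ambn cells. Among these low clusters were all 11 immune clusters, and also the mesenchymal Igf1 cluster with 33.7 CPM, all of them under the 66.3 CPM of the droplets. After thinning, 47.0% of endothelial cells (31 of 66) and 50.5% of Fmod cells (162 of 321) had an Id1 UMI, against 6.21% of Igf1 cells (22 of 354).

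Id3 was present in 54.4% of all thinned cells and had its highest level in a mesenchymal cluster. Slc20a2 cells had 2519 CPM (2410 to 2632), above the 1650 CPM (1533 to 1773) of Emcn cells and the 1577 CPM (1524 to 1631) of Fmod cells, which were not apart from each other. Grp cells (1408 CPM), Krt17 cells (1157 CPM) and the monocyte-like Ly6c2 cells (937 CPM) came next, each apart from the one before it. In all, 10 of 26 neighbours in the order of clusters were apart, a count that rests on the UMIs behind a gene. At the low end, Retnlg neutrophils had 13.3 CPM, and 1.49% of them had an Id3 UMI after thinning (1 of 67, median depth 2026 UMIs before thinning), against 94.2% of Slc20a2 cells (97 of 103, median depth 6902).

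Id2, which restrains bHLH factors in lymphoid and myeloid lineages as well as in epithelia, was highest outside the dental layers. Il1a macrophage-like cells had 561 CPM (475 to 659), the unnamed Hs3st1 cells 439 CPM (309 to 605) and Ccl7 macrophage-like cells 387 CPM (360 to 414), and neighbours among them were not apart. Emcn cells had 299 CPM and Gzma cytotoxic lymphocytes 283 CPM. The Fmod, Fxyd4 and Grp clusters led the dental cells with 223, 214 and 191 CPM. B cell clusters were at the bottom: Ms4a1 cells had 17.6 CPM and Vpreb3 cells had 0 UMIs, which allows a level of up to 13.4 CPM (3 counts over the group). The 3 clusters with the highest Id2 also had the 3 highest summed levels of 14 immediate early and dissociation genes (Fos, Jun, Egr1, Hspa1a and others), with 18243 CPM in Il1a, 15070 CPM in Hs3st1 and 21250 CPM in Ccl7 cells. The range of that sum was 782 to 6196 CPM in mesenchymal clusters. Its part in the Id2 levels was not tested.

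Id4 was concentrated in 1 cluster. Krt17 epithelial cells, with the leading genes Krt17, Enpp2 and Dsc3, had 439 CPM (398 to 484), and 61.9% of them had an Id4 UMI after thinning (52 of 84). Grp cells had 99.6 CPM (88 to 112) and Slc20a2 cells 50.2 CPM (36 to 68), each apart from the level before it. Every other cluster was at or below the 29.5 CPM of Fxyd4 cells, under the 39.2 CPM of the droplets. The interval of Slc20a2 cells held that droplet level. Epithelial cells held 74.2% of all Id4 UMIs of the 4502 cells, and the 95 Krt17 cells alone held 38.9%.

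Smad6, the BMP-biased inhibitor, was highest in mesenchymal clusters. Slc20a2 cells had 139 CPM (115 to 168), Fmod cells 123 CPM (108 to 138), odontoblast-like Col24a1 cells 102 CPM (89 to 117), Plac8 cells 85.6 CPM and Dspp cells 79.5 CPM, and no cluster was apart from the next at this depth. Smad6 was at 0 UMIs in 6 clusters (Retnlg, Ms4a1, Vpreb3, Trbc2, Cox6a2 and Hs3st1). Smad7, the inhibitor shared by the BMP and TGF-beta branches, had its highest levels in lymphocytes. Trbc2 T cells had 727 CPM (610 to 859), Gzma cells 554 CPM (445 to 681), Hs3st1 cells 391 CPM, Ms4a1 B cells 304 CPM, Cox6a2 dendritic cells 277 CPM and Emcn endothelium 247 CPM. These 6 formed a run in which no neighbours were apart, and the next cluster, Vpreb3 B cells, was lower with 156 CPM. After thinning, 71.4% of Trbc2 cells (30 of 42, median depth 2092) had a Smad7 UMI, against 10.9% of mesenchymal cells (median depth 6950.5). The Dspp, Col24a1 and Fxyd4 clusters had 79.5, 92.0 and 87.6 CPM, and the other named mesenchymal and epithelial clusters lay between 41.0 and 70.2 CPM.

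The classes were then compared on summed counts, and a gene was counted as higher or lower at 2-fold or more with at least 30 UMIs over both sides. A gene with 0 UMIs on one side could be counted only as lower on that side, and only where its bound passed 2-fold. Epithelial against mesenchymal cells, the 2 dental layers that exchange BMP signals, differed by that much in Id4 and in no other member. Id4 had 77.8 CPM in the epithelium against 14.4 CPM in the mesenchyme, a log2 ratio of 2.44 (2.22 to 2.66). So 1 of 6 genes was higher and 0 were lower, where 10.5% of 12828 genes were higher and 20.6% lower. Id1 had 120 CPM in the epithelium against 196 CPM in the mesenchyme (log2 −0.70), and Id3 635 CPM in the epithelium against 955 CPM in the mesenchyme (log2 −0.59). Smad6 had 37.8 CPM in the epithelium against 65.0 CPM in the mesenchyme (log2 −0.78). Id2 had 152 CPM in the epithelium against 145 CPM in the mesenchyme, with an interval of the log2 ratio that held 0 (−0.03 to 0.16). The median log2 ratio was −0.26 over the 6 genes and −0.30 over all genes. Leaving genes above 1% of UMIs out of the totals moved the median of all genes to −0.00. On those totals the log2 ratios were −0.40 for Id1, −0.29 for Id3, −0.49 for Smad6, 0.36 for Id2 and 0.48 for Smad7, against 0.19 for Smad7 with all UMIs.

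**Figure D2:**
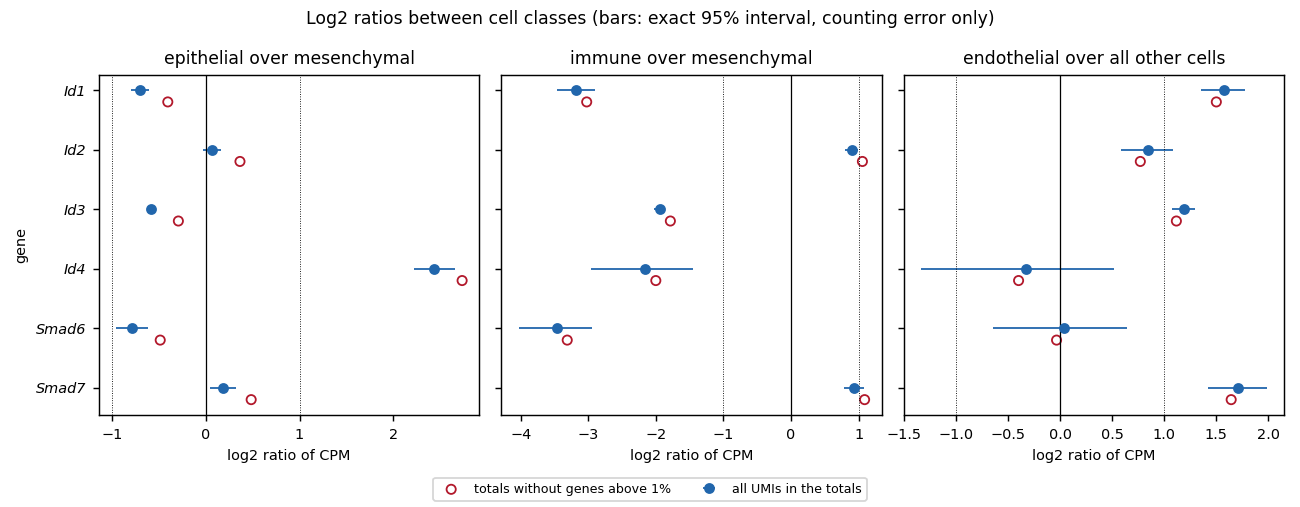
Log2 ratio of CPM for each gene between classes: epithelial over mesenchymal, immune over mesenchymal, and endothelial over all other cells. Filled points use all UMIs with exact 95% intervals, open points use totals without genes above 1% of UMIs, and dotted lines mark 2-fold. Id4 lies past the line in the first panel, Id1, Id3, Id4 and Smad6 far below it in the second, and Id1, Id3 and Smad7 above it in the third.

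Other genes of the pathway also differed between the dental layers. Of 9 measured BMP ligands 3 were higher and 4 lower in epithelium: Gdf5 had 15.9 CPM in the epithelium against 0.1 CPM in the mesenchyme, and Bmp3 had 0.9 CPM in the epithelium against 60.4 CPM in the mesenchyme. Of 10 antagonists 1 was higher and 6 were lower, and Nbl1, a secreted BMP-binding protein, had 21.0 CPM in the epithelium against 196 CPM in the mesenchyme. Of 7 other BMP response genes 4 were lower and 0 higher, among them Msx1, which is also a marker of the mesenchymal class. None of the 6 signal-carrying Smads passed 2-fold in either direction (0 and 0). Of 7 bHLH genes, the kind of partner that Id proteins bind, 1 was higher (Scx, log2 3.05) and 4 were lower.

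Endothelial cells, compared with all other cells, had more of Id1, Id3 and Smad7. Id1 had 435 CPM in endothelial cells against 147 CPM in other cells (log2 1.57, 1.36 to 1.78). Id3 had 1650 CPM in endothelial cells against 725 CPM in other cells (log2 1.19, 1.08 to 1.29), and Smad7 had 247 CPM in endothelial cells against 75.3 CPM in other cells (log2 1.71, 1.42 to 1.99). These were 3 of 6 genes higher, where 16.7% of 13993 genes were higher and 15.4% lower. Id2 was under 2-fold with 299 CPM in endothelial cells against 167 CPM in other cells (log2 0.84). The intervals for Smad6 (−0.64 to 0.64) and Id4 (−1.34 to 0.51) held 0, on 22 and 11 endothelial UMIs. The median log2 ratio was 1.01 over the 6 genes and 0.24 over all genes, with genes at 0 UMIs set at their bound. Endothelial cells also had more of 4 of 9 measured receptors and coreceptors, among them Eng, the endothelial coreceptor (815 CPM in endothelial cells against 9.5 CPM in other cells), Acvrl1, the endothelial type I receptor also called ALK1 (153 and 14.0 CPM in the same order), and Bmpr2 (341 and 64.8 CPM). The interval of the fourth, Rgmb, held 0 (log2 1.05, −0.09 to 1.99). The type I receptor Bmpr1a was lower, with 0 UMIs in endothelial cells and a log2 ratio of at most −2.78 from the floor of 3 counts. Of 6 signal-carrying Smads 1 was higher, Smad1, with 62.8 CPM in endothelial cells against 20.8 CPM in other cells. Of the immediate early genes 7 of 14 were higher in endothelial cells as well, and their part in the Id levels was not tested.

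Immune cells had far less Id1, Id3, Id4 and Smad6 than mesenchymal cells, and more Id2 and Smad7 at just under 2-fold. Id1 had 21.6 CPM in immune cells against 196 CPM in the mesenchyme (log2 −3.18, −3.46 to −2.91), and Smad6 had 5.9 CPM in immune cells against 65.0 CPM in the mesenchyme (log2 −3.47, −4.03 to −2.95). Id3 had 249 CPM in immune cells against 955 CPM in the mesenchyme (log2 −1.94), and Id4 had 3.2 CPM in immune cells against 14.4 CPM in the mesenchyme (log2 −2.16). The immune levels of these 4 genes were all under those of the droplets, and for Id4 the mesenchymal level was too. So 4 of 6 genes were lower, where 32.7% of 13000 genes were lower and 18.7% higher. Id2 had 272 CPM in immune cells against 145 CPM in the mesenchyme (log2 0.90, 0.81 to 1.00), and Smad7 had 119 CPM in immune cells against 62.4 CPM in the mesenchyme (log2 0.93, 0.79 to 1.08). With genes above 1% of UMIs left out of the totals these 2 ratios were 1.06 and 1.09, past 2-fold, while the median of all genes moved from −0.45 to −0.29. Smad7 was at 1.45 with cells weighted equally, and at 0.52 in cells with at least 1000 detected genes.

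Genes of the BMP branch were mostly lower in immune cells too. All 7 measured BMP ligands and all 10 measured antagonists were lower in immune cells, and Bmp4, the main BMP ligand of dental mesenchyme, had 3.6 CPM in immune cells against 162 CPM in the mesenchyme. Bmpr1a had 4.9 CPM in immune cells against 52.2 CPM in the mesenchyme, and Smad5 was lower too (log2 −2.15). Of 9 Smad regulators 6 were higher in immune cells and 0 lower, among them the corepressors Tgif1 (180 CPM in immune cells, 20.4 CPM in the mesenchyme) and Skil (260 CPM in immune cells, 48.4 CPM in the mesenchyme), and Pmepa1 (log2 1.70), a TGF-beta target that holds receptor Smads back. All 14 immediate early genes were higher in immune cells, with Zfp36 at 764 CPM in immune cells against 17.1 CPM in the mesenchyme, and their part in the Id2 and Smad7 levels was not tested.

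Within the mesenchyme, 11 of 48 values (6 genes in 8 clusters) were at least 2-fold from the other mesenchymal cells. Of all 11885 genes measured there, the share higher ran from 1.53% in Tac1 cells to 14.8% in Igf1 cells. The share lower ran from 9.79% in Igf1 cells to 23.2% in Col24a1 cells, so the count alone does not set the 6 genes apart. The Fmod cluster, whose leading genes include the matrix genes Fmod, Col9a2 and Vcan, had 382 CPM of Id1 against 166 CPM in the other mesenchymal cells (log2 1.20, 1.08 to 1.32). Smad6 had 123 CPM in Fmod cells and 55.9 CPM in the others (log2 1.13, 0.93 to 1.34), and Id2 and Id3 were higher by less than 2-fold (log2 0.74 and 0.88). That made 2 of 6 genes higher, where 4.22% of 11885 genes were higher and 11% lower. Among the 7 other BMP response genes Atoh8 (log2 1.76) and Hey1 (log2 1.20) were higher, Smad9 had 21.0 CPM in Fmod and 6.7 CPM in the other cells, and 9 of 10 cell cycle genes were lower.

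In the Slc20a2 cluster Id3, Id4 and Smad6 were higher and Id1 was not. Its leading genes include Alpl, the phosphatase of mineralising cells, and 3 osteoblast markers were raised in it. Id3 had 2519 CPM in Slc20a2 cells and 871 CPM in the other mesenchymal cells (log2 1.53, 1.46 to 1.60), Id4 had 50.2 CPM and the others 12.5 CPM (log2 2.01, 1.48 to 2.51), and Smad6 had 139 CPM and the others 61.1 CPM (log2 1.19, 0.89 to 1.48, and 1.00 after thinning, just under 2-fold). These were 3 of 6 genes higher, where 4.57% of genes were higher and 13.3% lower. The Id4 level of Slc20a2 cells (36 to 68 CPM) was not apart from the droplets' 39.2 CPM, and that of the others was under it. Id1 did not differ beyond counting error (log2 0.05, −0.19 to 0.28), and Id2 was lower by less than 2-fold (90.4 CPM in Slc20a2 cells, 148 CPM in the others). So the cluster with the highest Id3 of all groups had an Id1 level near that of the other mesenchyme. Hey1, a Notch and BMP target, was also higher (237 CPM in Slc20a2 cells, 26.4 CPM in the others, log2 3.17), while no BMP ligand was (0 of 7) and 5 of 9 antagonists were lower.

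The Igf1 cluster had the least Id1 and Smad6 of the mesenchymal clusters. Its Id1 interval (27.2 to 41.3 CPM) was under the droplets' 66.3 CPM and overlapped that of Dspp cells (30.4 to 89.4 CPM). The Igf1 cluster is dental follicle-like, with 5 raised markers of that list, one of which is Bmp3. Id1 had 33.7 CPM in Igf1 cells and 230 CPM in the other mesenchymal cells (log2 −2.77, −3.09 to −2.47), and Smad6 had 21.3 CPM in Igf1 cells and 74.3 CPM in the others (log2 −1.81, −2.21 to −1.42). Id3 (log2 −0.64) and Smad7 (log2 −0.70) were lower by less than 2-fold, and Id2 had 129 CPM in Igf1 cells and 149 CPM in the others. At the finer clustering the matching cluster had log2 ratios of −1.42 for Id3, −1.33 for Smad7 and −1.76 for Id4, whereas Smad7 was at −0.35 with cells weighted equally and Id4 at −0.45 with at most 10% mitochondrial UMIs. Lower genes were 2 of 6 and higher ones 0, where 9.79% of genes were lower and 14.8% higher. Of the 7 other BMP response genes 3 were lower as well, among them the homeobox gene Msx2 (7.3 CPM in Igf1 cells, 260 CPM in the others) and Dlx3 (log2 −2.82). Of 7 ligands 3 were lower, with Bmp4 at 56.4 CPM in Igf1 cells and 184 CPM in the others, and Bmp3 was higher (329 and 3.6 CPM in that order). Of 9 antagonists 5 were higher and 2 lower: Nog had 19.4 CPM in Igf1 cells and 1.9 CPM in the others, and the decoy receptor Bambi 80.3 CPM in Igf1 cells and 1027 CPM in the others. TGF-beta response genes were mostly higher, 3 of 4 with Tagln at log2 7.51 and Ctgf at log2 2.59, and none of the 6 signal-carrying Smads passed 2-fold (0).

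Odontoblast-like Col24a1 cells had less Id3, with 497 CPM against 1027 CPM in the other mesenchymal cells (log2 −1.05, −1.14 to −0.96), the 1 lower gene of 6 where 23.2% of genes were lower and 8.27% higher. Their inhibitory Smads were higher by less than 2-fold, Smad6 with 102 CPM against 59.2 CPM (log2 0.79) and Smad7 with 92.0 CPM against 57.7 CPM (log2 0.67). BMP ligands were higher in 4 of 7 cases, among them Bmp8a (56.8 CPM in Col24a1 cells, 5.4 CPM in the others) and Bmp7 (168 CPM in Col24a1 cells, 66.6 CPM in the others). The antagonist Sost, which in bone marks embedded osteocytes, had 39.0 CPM in Col24a1 cells and 0.6 CPM in the others. The 22 Dspp cells, with leading genes of dentine and bone (Dspp, Bglap, Ibsp), had less Id1 (54.2 CPM against 198 CPM) and Id3 (257 CPM against 967 CPM), 2 of 6 genes where 19.1% were lower and 9.69% higher. The Id3 level of Dspp cells was under the droplets' 413 CPM, and their Id1 interval (30.4 to 89.4 CPM) held the droplets' 66.3 CPM. Id4 was lower in the cycling Cenpa cells (7.8 CPM against 16.5 CPM, log2 −1.09, both under the droplet level, and from −0.77 to −0.97 under 5 of the alternative settings), 1 of 6 genes where 12.9% were lower and 5.69% higher. Lypd1 cells had 0 of 6 genes past 2-fold, where 1.79% of genes were higher and 11.5% lower, and Tac1 cells 0 of 6, where 1.53% were higher and 14.2% lower. The unnamed Plac8 cluster also had 0 of 6 past 2-fold over mesenchymal cells, where 2.03% were higher and 14.8% lower, and its Id1 (243 CPM), Id3 (804 CPM) and Smad6 (85.6 CPM) lay within the mesenchymal range.

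**Figure D3:**
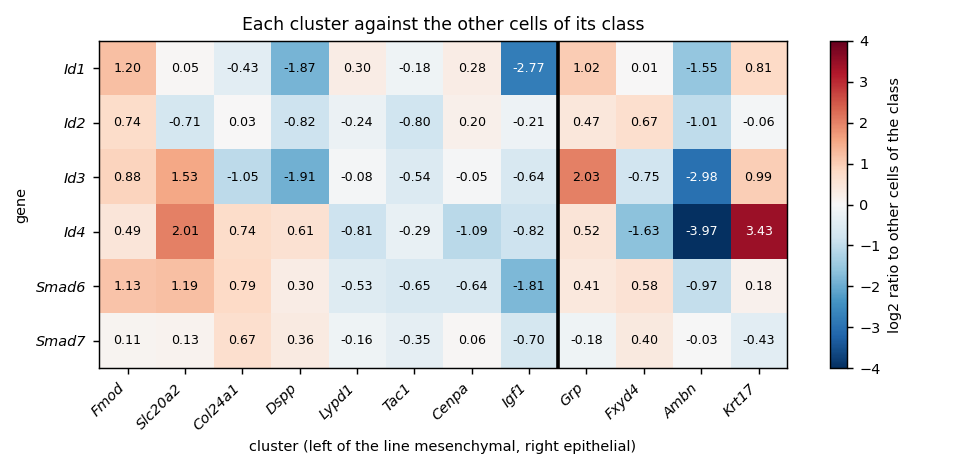
Log2 ratio of each gene in each mesenchymal cluster (left of the line) and each epithelial cluster (right) to the other cells of the same class, printed in the cell and coloured from −4 (blue) to 4 (red). Id1 spans −2.77 in Igf1 cells to 1.20 in Fmod cells, Id3 −2.98 in Ambn cells to 2.03 in Grp cells, Id4 −3.97 in Ambn cells to 3.43 in Krt17 cells, and Smad7 stays between −0.70 and 0.67.

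In the epithelium, 8 of 24 values were past 2-fold, among them 2 each of Id1 and Id3 and 3 of Id4. Of all 10574 genes measured there, the share higher ran from 3.53% in Ambn cells to 29.2% in Grp cells. The share lower ran from 7.89% in Krt17 cells to 40.7% in Ambn cells, so the count alone does not set the 6 genes apart. Grp cells, with leading genes Grp, Vwa2 and Sfrp5 and all 10 cell cycle genes higher, had 1408 CPM of Id3 against 345 CPM in the other epithelial cells (log2 2.03, 1.96 to 2.10) and 191 CPM of Id1 against 94.0 CPM (log2 1.02), 2 of 6 genes where 29.2% were higher and 8.1% lower. Id1 in Grp cells was under 2-fold at the finer clustering (log2 0.79) and with genes above 1% of UMIs left out of the totals (log2 0.57), where Id3 was at 1.58. Krt17 cells had 439 CPM of Id4 against 40.8 CPM (log2 3.43, 3.22 to 3.63), 1 of 6 where 17.9% were higher and 7.89% lower. Their Id3, 1157 CPM against 582 CPM, was just under 2-fold (log2 0.99, 0.90 to 1.09), and under the alternative settings it lay between 0.46 (cells weighted equally) and 1.17 (at most 10% mitochondrial UMIs). In Krt17 cells 5 of 6 measured other BMP response genes were higher too: Msx2 had 354 CPM in Krt17 cells and 120 CPM in the other epithelial cells, Hes1 193 CPM and 52.8 CPM, and Hey1 34.0 CPM and 8.6 CPM, while 4 of 6 ligands were lower.

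Ambn cells, which hold the enamel matrix genes Ambn and Amelx, were the lowest epithelial cluster for Id1, Id3 and Id4, and with all UMIs in the totals also for Id2 and Smad6. Id3 had 126 CPM against 994 CPM in the other epithelial cells (log2 −2.98, −3.11 to −2.85), and Id4 had 8.1 CPM against 127 CPM (log2 −3.97, −4.51 to −3.48). Id1 (56.4 against 166 CPM) and Id2 (95.7 against 192 CPM) were lower as well, 4 of 6 genes where 40.7% were lower and 3.53% higher. With all UMIs in the totals, the Ambn levels of these 4 genes were all under those of the droplets. The droplets held 66.3 CPM of Id1, 119 of Id2, 413 of Id3 and 39.2 of Id4. Enamel genes fill much of the totals of Ambn cells. With genes above 1% of UMIs left out, the median of all genes moved from −0.81 to −0.09, Id3 was at −2.27 and Id4 at −3.26, but Id1 (−0.84) and Id2 (−0.29) were no longer past 2-fold. On these totals Ambn cells had 174 CPM of Id2 and Krt17 cells 156 CPM, and Smad6 had 44.2 CPM in Ambn and 45.2 CPM in Krt17 cells. Id2 was also under 2-fold with cells weighted equally (−0.90) and after thinning (−0.63). Smad7 did not share the low level of Ambn cells, with 70.2 CPM against 71.6 CPM (log2 −0.03 with all UMIs and 0.69 with the smaller totals). Fxyd4 cells had 1 lower gene of 6, Id4 (29.5 against 91.5 CPM, log2 −1.63), where 17.9% were lower and 5.92% higher. That Fxyd4 level was also under the droplets' 39.2 CPM.

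Clustering more finely split several of these groups into parts, and the 6 genes differed between the parts. The Igf1 cluster fell into parts led by Cbln1 (154 cells), Ibsp (118) and Sfrp2 (108). Id1 had 2.68 CPM in the Cbln1 part, from 3 UMIs, 43.9 CPM in the Ibsp part and 75.2 CPM in the Sfrp2 part. Id3 had 373, 673 and 1161 CPM in the same order. The Id1 levels of the Cbln1 and Ibsp parts were under the droplets' 66.3 CPM, and the interval of the Sfrp2 part (54.7 to 101 CPM) held it. The Id3 level of the Cbln1 part was under the droplets' 413 CPM. The Cbln1 part was below the other Igf1 cells by a log2 of −4.37 (−6.67 to −2.77) for Id1 and −1.19 (−1.35 to −1.03) for Id3, whereas for Smad6 the interval held 0 (−1.14 to 0.52). The epithelial Grp cluster held a part led by Calb1, Dspp and Amelx (61 cells). Smad6 had 140 CPM in that part and 31.0 CPM in the remaining Grp cells (log2 2.18, 1.65 to 2.70), and Id2 had 364 CPM and 163 CPM in the same order (log2 1.16). Id3 and Id4 were lower in it (log2 −0.50 and −1.12). The Fmod cluster split into a Plac8 part and a Fmod part with like Id1 (375 and 401 CPM) and Smad6 (123 and 119 CPM), but with Id3 at 1322 and 1933 CPM and Id4 at 7.0 and 33.7 CPM. Both Id4 levels were under the droplets' 39.2 CPM. The log2 ratio of Id4 to other mesenchymal cells was 0.49 for the whole Fmod cluster and −1.16 for its closest match at the finer clustering.

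**Figure D4:**
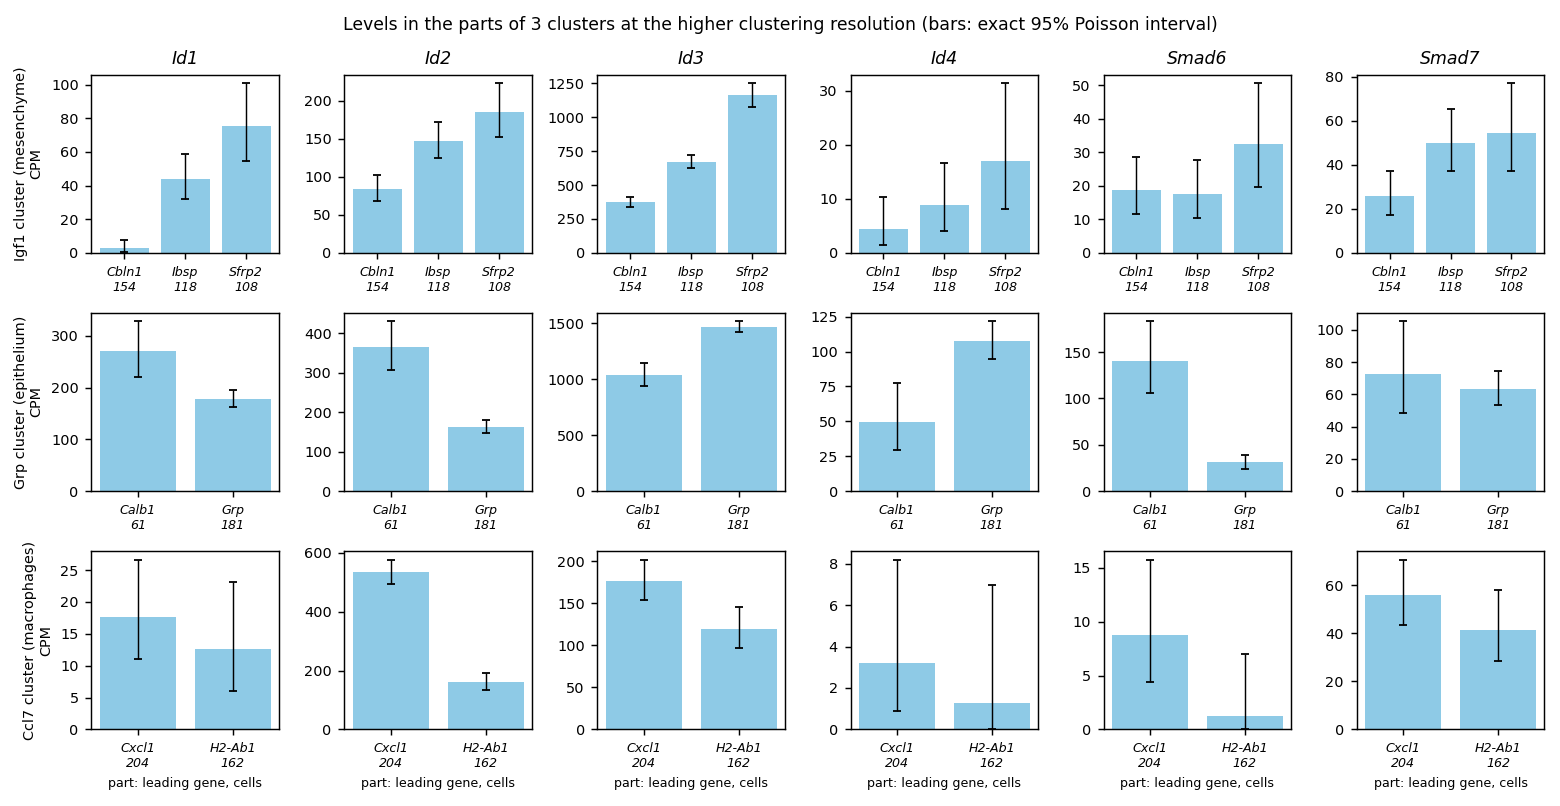
Level of each gene (CPM, from 0, own scale per panel) in the parts of the Igf1, Grp and Ccl7 clusters at the higher clustering resolution, with the leading gene and the number of cells under each bar and exact 95% Poisson intervals. Id1 is at 2.68 CPM in the Cbln1 part of the Igf1 cluster, Smad6 at 140 CPM in the Calb1 part of the Grp cluster, and Id2 at 534 CPM in the Cxcl1 part of the Ccl7 cluster.

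Within the immune class the Id genes lay in different lineages. Id2 differed between parts of the Ccl7 and H2-Eb1 clusters. The H2-Eb1 cluster had 8 raised macrophage markers, but its leading genes hold more dendritic cell markers (H2-Eb1, H2-Aa, Cd209a and others) than macrophage markers, and it is left unnamed within the class. In the Ccl7 macrophage-like cells the Cxcl1 part had 534 CPM and the H2-Ab1 part 162 CPM (log2 1.72, 1.45 to 2.01). In the H2-Eb1 cluster the Nr4a3 part had 487 CPM and the Apoe part 72.5 CPM (log2 2.75, 2.17 to 3.38). The Id2 level of the Apoe part was under the droplets' 119 CPM. The Cxcl1 part was led by Cxcl1, Arc, Maff, Mt2 and Cxcl2, and the H2-Ab1 part by H2-Ab1, H2-Eb1, H2-Aa, Cd74 and Tspan13. The Nr4a3 part was led by Nr4a3, Vps37b, Traf1, Cd83 and Pim1, and the Apoe part by Apoe, Ms4a7, C1qc, C1qb and Trem2. The part of cell type or state in these differences was not tested. Id3 in the H2-Eb1 cluster followed Id2, with 447 CPM in the Nr4a3 part and 101 CPM in the Apoe part (log2 2.15, 1.63 to 2.69). The Nr4a3 level (379 to 523 CPM) was not apart from the droplets' 413 CPM, and the Apoe level was under it. The median depth of these parts was 4759 UMIs in the Nr4a3 part and 2293 UMIs in the Apoe part, and its part in the difference was not tested. B cells had almost no Id2, and their Id3 was under the droplets' 413 CPM, with 247 CPM in Ms4a1 cells and 330 CPM in Vpreb3 cells. The part of free RNA in these Id3 levels was not tested. Median depths of the 2 B cell clusters were 1593 and 2029 UMIs. They were 1956.5 in Gzma, 2092 in Trbc2 and 2026 in Retnlg cells, whose Id3 was at 30.8 CPM or less. Gzma cytotoxic lymphocytes had Id2 at 283 CPM (207 to 378) with Id3 at 30.8 CPM. Trbc2 T cells had 26.3 CPM of Id3, and their Id2, 153 CPM (102 to 219) from 29 UMIs, was not apart from the droplets' 119 CPM. Ly6c2 monocyte-like cells stood apart in Id3 from other myeloid clusters, with 937 CPM (863 to 1017), against 156 CPM in Ccl7 cells and 263 CPM in H2-Eb1 cells. Their Id3 was found both in cells with Ly6c2 or Ccr2 UMIs and no Ace or Treml4 (736 CPM, 73 cells) and in cells with Ace or Treml4 and no Ly6c2 or Ccr2 (1144 CPM, 43 cells). This split was chosen after the values were seen.

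Across the 27 groups, Id1, Id3 and Smad6 had the most similar profiles of the 6 genes. On log2(CPM + 5), Pearson's r was 0.80 for Id1 with Smad6, 0.78 for Id1 with Id3 and 0.70 for Id3 with Smad6. These points share 1 library, and the values were smaller within classes. Among the 13 endothelial, epithelial and mesenchymal groups alone r was 0.47 for Id1 with Smad6, 0.74 for Id1 with Id3 and 0.42 for Id3 with Smad6, and among the 11 immune groups it was 0.09, 0.18 and 0.09. Smad7 had an r between −0.29 and 0.09 with every other member over all groups. With Id1 it was −0.80 among the 11 immune groups and 0.42 among the 13 endothelial, epithelial and mesenchymal groups. With Id2 it was −0.15 and 0.56 in the same order. All 11 immune groups had Id1 under the droplets' 66.3 CPM. The immune values of r with Id1 therefore rest on levels not read as expression on their own. Id2 with Id3 was 0.03 over all groups, and 0.42 among the 13 groups. The 5 genes of 6780 most like each member were Sox11, Oaz2, Nckap1, Robo1 and Zfp462 for Id1 (0.905 to 0.869), Rap2a, Bag3, Errfi1, Fos and Prkar2a for Id2 (0.769 to 0.726), and Adh5, Zfp771, Mrpl11, Pfdn1 and 2210016L21Rik for Id3 (0.893 to 0.876). For Id4 they were Fam13a, Myh14, Ano1, Trpm4 and Rnd2 (0.840 to 0.808), for Smad6 Tspan7, Fkbp9, Mageh1, Mdfi and Fkbp14 (0.937 to 0.913), and for Smad7 Cnot6l, Zbtb1, Rnf138, Itpkb and Macf1 (0.839 to 0.826). No member was among the 5 nearest genes of another.

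**Figure D5:**
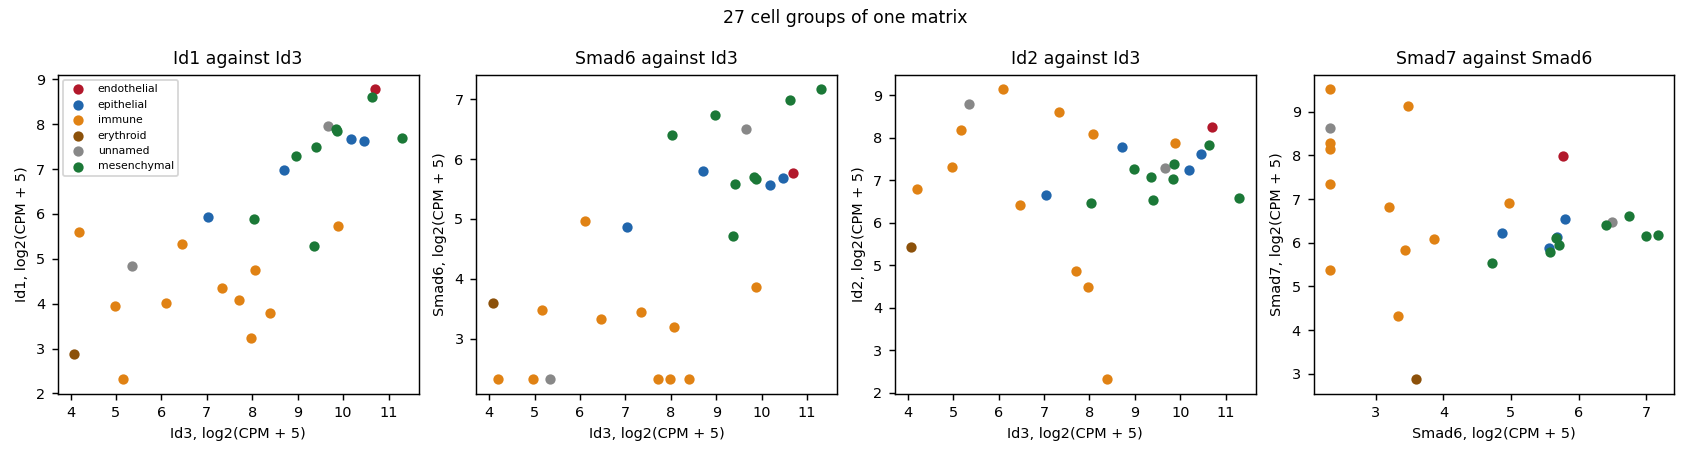
Levels of pairs of genes, log2(CPM + 5), in the 27 cell groups, 1 point per group coloured by class: Id1, Smad6 and Id2 against Id3, and Smad7 against Smad6. Immune groups (orange) lie low in Id1 and Smad6, and most mesenchymal and epithelial groups high. The Igf1 and Dspp clusters are the green points lowest in Id1, and Smad7 is highest where Smad6 is near 0.

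Within single cells the Id genes were weakly linked once depth was made equal. Among 1809 thinned mesenchymal cells, Id3 was present in 80.7% of cells with an Id1 UMI (434 of 538) and in 65.9% of cells without one, with r = 0.21, against 0.51 before thinning. In Krt17 cells Id1 went with Id3 (r = 0.36) and with Id2 (r = 0.34), but Id4 was present in 56.9% of cells with Id3 and in 69.7% of cells without it (r = −0.22, 84 cells). In Igf1 cells Id3 was present in 72.7% of the 22 cells with Id1 and in 50.3% of those without. Smad6 and Smad7 were almost unlinked in mesenchymal cells (r = 0.02). These are sparse counts of 1 library and are descriptions only. The mesenchymal and Igf1 values pool clusters or parts whose Id1 and Id3 levels differ, so they also hold differences between these. The spread of Id3 over thinned cells, as variance over mean, was 5.16 in Ccl7 cells, 4.40 in Krt17 cells, 4.37 in Ly6c2 cells and 3.52 in Igf1 cells, and lower in clusters where nearly every cell had it, 2.89 in Slc20a2, 2.28 in Fmod and 2.08 in Grp cells.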

How the data were processed

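The authors deposited unfiltered UMI counts per gene and barcode, made by software version 3.0.2 and in format version 2 per the file headers. The build mm10, R 3.4.1 and Seurat 3.4.1 are named in the submitters' processing notes, while for the aligner and annotation the sources used here give no name. The matrix held 6794880 barcodes and 68931830 UMIs, and no sample columns were left unused (0). Of 5336 barcodes with at least 500 genes, 561 with over 20% of UMIs from 13 mitochondrial genes were set aside, and the median of those kept was 5857 UMIs.

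Scrublet (in scanpy 1.11.5, expected share 5%) called 1 doublet by its automatic threshold, so a score above 0.15 was used (2.55% of barcodes). Haemoglobin above 5% outside erythroid clusters removed 3.16%. Cells were scaled to 10000 UMIs and log-transformed, and 2000 variable genes (scaled to at most 10), 30 components and 15 neighbours gave Leiden clusters (igraph 0.11.9, seed 0) at resolution 1.0, with mesenchymal cells again at 0.5. The members, 11 pathway lists (107 of 109 genes in the matrix) and mitochondrial genes were left out of the clustering. A cluster took the name of the marker list, of 29, with the most raised markers, at least 3, each 2-fold over the median cluster and present in 25% of cells, unless its 10 leading genes held more markers of another class or, among immune clusters, of another immune list. Clusters are rebuilt and may differ from the authors' own.

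Summed counts per group were scaled to CPM with exact Poisson intervals. Log2 ratios have exact conditional binomial intervals, and a count of 0 was set to a floor of 3, which gives a bound on the ratio and, for shares, the limit printed. Shares after thinning have exact Clopper-Pearson intervals (scipy 1.17.1, Python 3.11.15). With 1 sample no test was made. The ratio script was tested on simulated data. Likeness used genes with at least 200 UMIs and 50 CPM in a group of at least 20 cells, and the 35 repeated symbols were separated by their identifiers. By rule the text names the members, up to 5 leading genes per cluster, 5 most alike genes per member, and 2 to 4 listed genes with the largest ratios per list and comparison, although not every list is named. Whether droplets of 1 to 20 UMIs represent free RNA was not tested. The members and lists were chosen with earlier results of these data known. Counting the Plac8 cluster as mesenchymal and splitting the monocyte-like cells were chosen after the data were seen. In all 13 alternative settings were tried.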

Additional observations from a re-analysis of the deposited data

Results flagged for a closer look

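The 561 barcodes with more than 20% mitochondrial UMIs, which no comparison used, also held all 6 genes. They had 80.8 CPM of Id1 (65.6 to 98.3), 115 CPM of Id2 (96.8 to 136), 430 CPM of Id3 (394 to 468), 32.6 CPM of Id4 (23.3 to 44.4), 23.7 CPM of Smad6 (15.8 to 34.0) and 131 CPM of Smad7 (112 to 153). They are given because these barcodes lie outside every comparison. The intervals for Id1, Id2, Id3 and Id4 held the levels of the droplets of 1 to 20 UMIs, while Smad6 and Smad7 were above the droplets' 12.8 and 22.9 CPM. No cause was tested.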

How the results depend on the processing

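No paired analysis was possible because both sample titles share 1 matrix, and for the same reason no replicate could be left out. No called difference changed direction under any setting. Leaving genes above 1% of UMIs out of the totals gave 5 calls among the epithelial clusters in place of 8 (without Id1 and Id2 in Ambn and Id1 in Grp cells), and kept 24 of 27 calls in all, with 2 gained (Id2 and Smad7, immune over mesenchymal, 1.06 and 1.09). Weighting cells equally kept 25 and gained 3, at most 10% mitochondrial UMIs kept 26 and gained 2, and thinning to 2000 UMIs kept 24 and gained 6. Of the 8 calls between classes, all 8 were kept with at least 1000 genes, with doublets kept, at resolutions 0.5 and 2.0, and with the lists in the clustering. Finer clusters kept 17 of 19 and gained 5, and 15 of 16 calls were kept with Plac8 cells as mesenchymal. Spearman's correlation shared 10 of the 30 named alike genes, so those names depend on the measure. Without thinning the mesenchymal r of Id1 and Id3 was 0.51. Low counts limit Id4 outside epithelium and Smad6 in immune and endothelial cells.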

Other observations

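Other splits of the 6 genes lay inside cycling cells and granulocytes. The cycling Cenpa cluster divided into a part led by Pttg1 (174 cells) and a part led by Mcm2 (166 cells), genes of mitosis and of DNA replication. Id1 had 256 CPM in the Pttg1 part and 201 CPM in the Mcm2 part (log2 0.35, 0.16 to 0.55), and Smad7 had 75.6 CPM and 54.4 CPM in the same order (log2 0.47, 0.10 to 0.85). Id2 (161 CPM in both) and Id3 (924 CPM in the Pttg1 part, 938 CPM in the Mcm2 part) did not differ beyond counting error. Of the 2 neutrophil clusters, the one with granule genes (Camp, Ngp, Ltf) had 83.0 CPM of Id3 (57 to 117) and the one led by Retnlg 13.3 CPM (4 to 34), both below the droplets' 413 CPM. None of these differences has a replicate check.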
